A study of Schizosaccharomyces pombe with 27 samples.

Results

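Fission yeast (Schizosaccharomyces pombe) cells carrying 3 additional sets of the genes for DNA polymerase δ (4×Polδ, strain RZ118) were compared with wild-type cells (WT, strain 655), both of them strains in which ribonucleotides mark the DNA made by DNA polymerase ε (Polε). The samples were chosen by strain name. They made up 6 of the 27 samples, and after the sequencing runs of experiment 1 were summed they made up 4 of the 18 libraries, 2 for each strain. The study mapped ribonucleotides left by Polα, Polδ and Polε in cells with 1, 2 or 4 sets of the Polδ genes, and asked whether more Polδ changes how the polymerases divide the strands. The Polε strain with 1 additional set (2×Polδ, strain RZ62, 2 libraries) and the 4×Polδ and WT strains marked by Polδ were used only where a difference had to be placed.

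All of these strains were untreated, exponentially growing h- haploid cultures carrying leu1-32 and ura4-D18, and all lacked rnh201, the catalytic subunit of RNase H2 that removes ribonucleotides from DNA. Each Polε strain also carried cdc20 M630F, an allele of the Polε catalytic subunit that inserts more ribonucleotides, so both strains compared hold the reporter and the deletion. 4×Polδ carries an ade6 mutation and rnh201::hygR and holds a cassette of cdc1, cdc27, cdc6 and cdm1 between LoxP and LoxM3 at each of 3 sites on chromosome I, marked by kanR at I-3325162, natR at I-4734015 and ura4 at I-5230932. 2×Polδ also carries an ade6 mutation and rnh201::hygR, and holds the I-5230932 cassette alone. WT carries an unspecified ade6 mutation and rnh201::kanR and holds no cassette. The cdc6 gene in the cassettes of the Polε strains is unmutated. The Polδ strains used below carry an ade6 mutation and the reporter cdc6 L591G at the native gene in place of cdc20 M630F: 4×Polδ (RZ112, rnh201::hygR) also has cdc6 L591G in cassettes at the same 3 sites, and WT (856, rnh201::kanR) has no cassette.

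Polε extends the leading strand at most replication forks and Polδ completes the lagging strand, while Polα with primase starts each chain. Polδ is a complex of the catalytic subunit Cdc6, the second subunit Cdc1, the PCNA-binding subunit Cdc27 and the small subunit Cdm1. In polymerase usage sequencing (Pu-Seq), DNA is cut at ribonucleotides, with alkali in the standard protocol and with RNase H2 in the modified one. Each cut end is counted on its strand. A mutation by which 1 polymerase inserts more ribonucleotides thus shows where that polymerase worked. Because forks leave an origin in opposite directions, the strand marked by Polε switches at an origin and switches back where forks meet.

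The reporter codon and its counterpart in Polδ are shown because they decide which polymerase a library reads. In the genome sequence of RefSeq (ASM294v3), cdc20 (SPOM_SPBC25H2.13C, 2199 residues) holds codon 630 within chrII:3255755-3255799, plus strand, in its coding exon. The catalytic subunit gene cdc6 (SPOM_SPBC336.04, 1086 residues) holds the other codon within chrII:2745644-2745688, plus strand. Capitals mark the codon changed in M630F and in L591G, counted from the initiator methionine.
cdc20: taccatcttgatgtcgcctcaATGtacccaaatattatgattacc
cdc6: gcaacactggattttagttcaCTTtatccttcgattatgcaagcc

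Counts were given for the top and bottom strand in bins of 300 bp. The total held 38497057 (experiment 1) and 17498044 counts (experiment 2) in 4×Polδ, against 34475309 and 22947149 in WT. The median bin held 877 and 399 counts in 4×Polδ, against 761 and 542 in WT, so that single bins in experiment 2 were measured with less precision in 4×Polδ. The label of the additional Polδ genes can be read in the counts, as given next. The polymerase track of a bin, the difference between top and bottom counts divided by their sum, correlated between the experiments with r = 0.928 in 4×Polδ, 0.929 in 2×Polδ and 0.836 in WT (41870 bins with at least 10 counts in every library, whose base composition is common to all libraries). The WT library of experiment 2 stands apart from the other 5 Polε libraries: its mean track beside origins was flatter, as described below. The slope on fork direction and the amplitudes at efficient and intermediary origins and at termination zones are given with and without it. So are the window calls of edgeR and the origin calls of limma. Counts of windows or genes whose difference repeated in both experiments need this library and are given only with it. Tracks at single places are given for each experiment. Libraries of the study were made by the standard Pu-Seq protocol or by a modified one, and which experiment used which was not given in the sources used here. Protocol and experiment therefore cannot be told apart. Differences between strains were taken within each experiment. The permutation tests and the main edgeR, DESeq2 and limma fits held no term for the experiment, so its effect enters their spread. Fits with the experiment as a block are named as such. The p-values below measure only the spread between these libraries, with 2 per strain.

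The 4 genes of the Polδ complex were present at about 4 times the WT level in 4×Polδ, and at about 2 times in 2×Polδ. Counts over a gene, divided by the library total and set against WT of the same experiment, gave 4.51 and 4.10 times for cdc1, 4.16 and 4.05 for cdc27, 3.96 and 3.70 for cdc6 and 4.31 and 3.75 for cdm1 (experiments 1 and 2). The corresponding values for 2×Polδ were 2.25 and 1.97 for cdc1, 2.03 and 2.05 for cdc27, 2.05 and 1.92 for cdc6, and 2.17 and 1.81 for cdm1. No value in 4×Polδ overlapped the values in 2×Polδ. The mean over the 4 genes was 4.07 ± 0.236 times WT (SD of 2 experiments). Set against the mean of the WT libraries, the mean was 4.17 and 3.94 in the 4×Polδ libraries, against 0.988 and 1.01 in the WT libraries, which did not overlap (two-sided exact permutation test, p = 0.33, the smallest that 2 against 2 libraries can give). The plot of counts by gene shows these genes against genes left outside the cassettes.

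**Figure D1:**
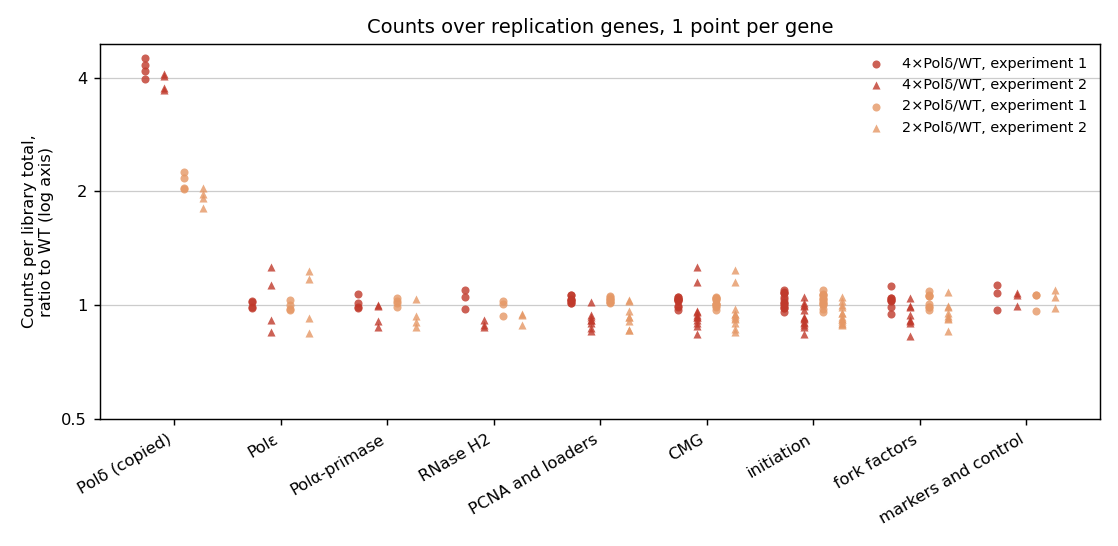
Counts over each gene per library total relative to WT of the same experiment (vertical axis, log scale), with gene groups along the horizontal axis and 1 point per gene for 4×Polδ and 2×Polδ in each experiment, and without ura4, which is deleted in WT. The 4 Polδ genes lie between 3.70 and 4.51 in 4×Polδ, while genes outside the cassettes lie near 1.

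Among the 41870 bins with at least 10 counts in both WT libraries, those above 2 times WT in both experiments formed 4 runs. They were 10 bins at cdc1 (chromosome I 4014301 to 4017300), 12 at cdc27 (chromosome II 1060801 to 1064400), 22 at cdc6 (chromosome II 2742601 to 2749200) and 8 at cdm1 (chromosome II 2304901 to 2307300), 52 bins in all (0.124%). Each run reached beyond the ends of its gene, and 0 of the other 41818 bins met the same criterion. Of the 38 bins with fewer counts in WT, 5 adjacent bins were also above 2 times WT in both experiments, at chromosome III 115501 to 117000, and 4 of them overlap ura4. The edgeR quasi-likelihood test of total counts called 0 of 41870 bins (0%) without a block and 52 (0.124%) with the experiment as a block, 48 of them in those runs. Without the block, 117 bins had an unadjusted p below 0.05. DESeq2 called 70 bins (0.167%), 50 of them in the runs. The 4 other bins called with the block lay in centromere II and were lower in 4×Polδ.

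In 3 kb windows, edgeR called 6 of 4192 for a changed total (0.143%), all 6 over the copied genes, and 10 with the block (0.239%). The cdc1 window at 4014001 had 29538 and 14160 counts in 4×Polδ, against 6989 and 4903 in WT. That was a log2 difference of 1.91 (SE 0.0924, edgeR adjusted p = 0.00132). The cdm1 window at 2304001 had 26652 and 11899 counts in 4×Polδ, against 7447 and 5149 in WT, a log2 difference of 1.63 (SE 0.0824, edgeR adjusted p = 0.00132). DESeq2 called 14 windows (0.334%), and a fit over all 18 libraries of the series called 8 (0.191%), or 18 with the block (0.429%). Without the WT library of experiment 1 edgeR called 3 windows. Counting only size, 13 of 4192 windows (0.31%) had a log2 total past 0.4 with the same sign in both experiments, 9 of them higher and 4 lower. The 9 higher windows were at the Polδ genes and at ura4, and the 4 lower ones lay in centromere II.

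Markers and reporter genes gave the label a further check. Over ura4, the marker of the I-5230932 cassette, 4×Polδ had 1972 and 1010 counts and 2×Polδ 1836 and 918, against 0 and 1 in WT, which carries the ura4-D18 deletion. The ura4 level was 0.650 and 0.732 of the median bin in 4×Polδ. Over rnh201, deleted in every strain here, the level was 0.273 and 0.174 of the median bin in 4×Polδ, against 0.257 and 0.191 in WT. The Polε gene cdc20 was at 1.03 and 0.849 times WT in 4×Polδ, the Polα gene pol1 at 0.989 and 0.910, and the actin gene act1 at 0.970 and 1.07. Each of these lay near 1, in contrast to the genes of the cassettes.

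A list of 51 genes of replication that the cassettes do not carry was examined in the same way: Polε and Polα subunits, RNase H2, PCNA and its loaders, the CMG helicase (Cdc45, Mcm2 to Mcm7 and GINS), initiation factors and fork factors. Their ratio of 4×Polδ to WT ran between 0.947 and 1.13 with a median of 1.03 in experiment 1, and between 0.831 and 1.26 with a median of 0.920 in experiment 2. None of the 51 lay in a window called for its total by edgeR or DESeq2 over the 6 Polε libraries, or by edgeR over all 18 libraries. In experiment 2 the lowest was mrc1, a checkpoint mediator of the fork, and the highest dpb3, a small Polε subunit. On the track, cdc45 (chromosome I 4724772 to 4726846) and orc1 (chromosome II 2571101 to 2573477) differed by more than 0.15 in both experiments, 2 of 51 genes, beside 1.24% of all 3 kb windows. The helicase gene cdc45, which lies close to the I-4734015 cassette, had a track of −0.587 and −0.499 in 4×Polδ cells, −0.747 and −0.703 in 2×Polδ cells, against −0.767 and −0.653 in WT. The origin recognition gene orc1 had 0.445 and 0.405 in 4×Polδ cells, 0.40 and 0.380 in 2×Polδ cells, against 0.294 and 0.181 in WT. Both genes lay in windows that DESeq2 called for the strand ratio, as it did 1.38% of all windows, and 0 of the 51 lay in one called by edgeR over the 6 Polε libraries.

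Reads from a cassette are placed on the native gene, because both have the same sequence, so the track over a copied gene combines the native locus with the inserted copies. At 2 of the 4 genes this changed the track. Over cdc1 it was 0.332 and 0.274 in 4×Polδ, against −0.662 and −0.427 in WT, and the sign was reversed in both experiments. The counts that 4×Polδ held beyond the WT level had a track of 0.627 and 0.490. Over cdc27 it was −0.641 and −0.567 in 4×Polδ, against −0.008 and 0.174 in WT, and the added counts had −0.850 and −0.799. The change over both genes was many times the SD of the difference over all windows, which was 0.0602 in experiment 1 and 0.130 in experiment 2.

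At the other 2 genes the added counts ran the same way as the native locus. Over cdc6 the track was 0.711 and 0.684 in 4×Polδ, against 0.732 and 0.550 in WT, and the added counts had 0.703 and 0.731. Over cdm1 it was −0.690 and −0.723 in 4×Polδ, against −0.698 and −0.566 in WT, and the added counts had −0.688 and −0.777. In 2×Polδ, which shares the WT libraries, the added counts had 0.625 and 0.362 over cdc1, −0.828 and −0.783 over cdc27, 0.728 and 0.892 over cdc6 and −0.731 and −0.942 over cdm1. The added counts therefore had the same sign in both strains at each of the 4 genes. The plot of tracks over the copied genes sets the measured track beside that of the added counts.

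**Figure D2:**
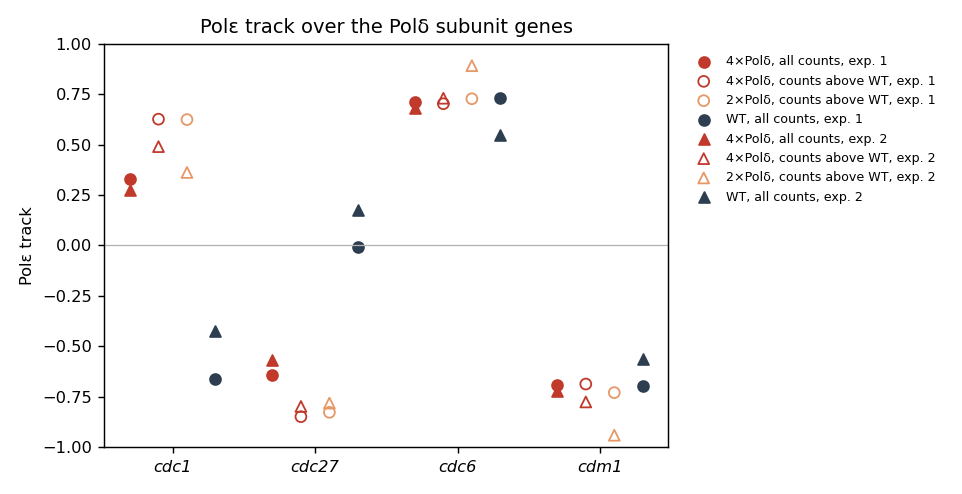
Polε track (vertical axis, from −1 to 1) over each Polδ gene in 4×Polδ (filled), in the counts that 4×Polδ and 2×Polδ held above the WT level (open) and in WT, with 1 point per experiment. Over cdc1 and cdc27 the added counts lie far from WT, at 0.627 and −0.850 for 4×Polδ in experiment 1. Over cdc6 and cdm1 they lie beside WT in experiment 1 and beyond it, with the same sign, in experiment 2. There the cdc6 values are 0.731 in 4×Polδ and 0.892 in 2×Polδ, against 0.550 in WT. Those for cdm1 are −0.777 and −0.942, against −0.566 in WT.

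Across the genome the Polε track of 4×Polδ followed that of WT closely. Over 41870 bins r was 0.988 in experiment 1 and 0.917 in experiment 2, and over 4192 windows it was 0.992 and 0.976. The SD of the window difference was 0.0602 in experiment 1 and 0.130 in experiment 2, and the difference passed 0.15 in 109 windows of experiment 1 and in 1073 of experiment 2. The 4×Polδ track was nearer to that of 2×Polδ, with r of 0.993 and 0.988 over bins, and their difference passed 0.15 in 34 and 35 windows.

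Strand use by Polε was set against fork direction, taken from the WT track of Polδ, whose libraries are not among those compared. The slope of the Polε track on it, with the sign turned, was 0.861 and 0.873 in 4×Polδ cells, 0.867 and 0.879 in 2×Polδ cells, against 0.872 and 0.599 in WT. In bins where the size of the WT Polδ track passed 0.6, where forks run mostly 1 way, the leading strand held 81.4% and 82.0% of the Polε counts in 4×Polδ cells, 81.5% and 82.1% of them in 2×Polδ cells, against 81.5% and 72.5% in WT. The low value in each comparison was the WT library of experiment 2. In experiment 1 the slope of 4×Polδ differed from that of WT by −0.0102 and in experiment 2 by 0.274, with a two-sided exact permutation p = 0.667. When the WT library of experiment 2 was left out, the difference was −0.00446.

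Origins and termination zones gave the same picture. From the WT tracks 2637 origins were called: 259 efficient (at least 40%), 220 intermediary (20 to 40%) and 2158 low. Of these 259, 219 and 2155 could be measured, 2633 in all, with 142 termination zones between efficient origins. The amplitude at an origin was taken as the mean of the track 0.9 to 3 kb to its right and of the sign-turned track at the same distance to its left. At efficient origins it was 0.635 and 0.613 in 4×Polδ (0.624 ± 0.0157, SD, n = 2), against 0.649 and 0.465 in WT (0.557 ± 0.130, SD, n = 2). The 4×Polδ value was lower than that of WT by 0.0138 in experiment 1 and higher by 0.148 in experiment 2 (two-sided exact permutation test, p = 1). The amplitude was higher in 4×Polδ at 72 of 259 efficient origins in experiment 1 and at 255 in experiment 2. Without the WT library of experiment 2 the mean difference was −0.0249, so that its direction depends on that library.

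At intermediary origins the amplitude was 0.292 ± 0.010 in 4×Polδ, against 0.268 ± 0.0508 in WT (SD, n = 2 each), with differences of −0.00448 and 0.0532. At low origins it was 0.0102 in 4×Polδ, against 0.00911 in WT, close to no step in both. Across termination zones, from the first 3 to the last 3 of 20 equal parts, it was 0.588 ± 0.00847 in 4×Polδ, against 0.527 ± 0.114 in WT (SD, n = 2 each), with differences of −0.0135 and 0.135. Every class thus had a small difference in experiment 1, and at intermediary and efficient origins and in the zones experiment 2 gave a higher amplitude in 4×Polδ. The mean profile, with both sides joined and the left one sign-turned, showed the same. At 1.5 kb from efficient origins it was 0.669 and 0.638 in 4×Polδ, against 0.682 and 0.478 in WT. In experiment 2 the ratio of the profiles lay between 1.24 and 1.38 from 0.9 to 6 kb.

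**Figure D3:**
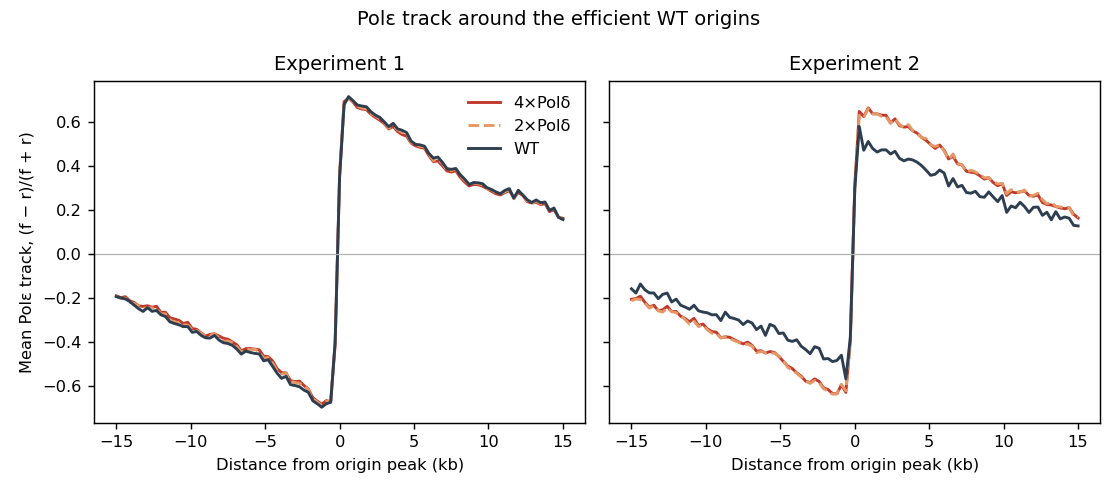
Mean Polε track (vertical axis) against the distance from the peak bin of 259 efficient origins in kb (horizontal axis), with 1 panel per experiment and 1 line per strain. The lines of all strains overlap in experiment 1. In experiment 2 those of 4×Polδ and 2×Polδ lie farther from 0 than WT, with 0.638 in 4×Polδ against 0.464 in WT 1.5 kb to the right.

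A limma fit of the step of each of 2633 origins called 2 (0.076%), or 1 with the experiment as a block. Both lie at the borders of the copied cdc27 gene on chromosome II and are of the low class. The origin bin at 1059901 to 1060200 had a step of −0.303 and −0.263 in 4×Polδ, against 0.0398 and 0.0813 in WT, a difference of −0.343 (SE 0.0283, limma adjusted p = 0.0418). The one at 1063801 to 1064100 had 0.405 and 0.468 in 4×Polδ, against 0.0354 and 0.0277 in WT, a difference of 0.405 (SE 0.0357, limma adjusted p = 0.0418). Both were picked by this fit, so their separation from WT follows from that choice. In 2×Polδ the step was −0.159 and −0.132 at the first and 0.267 and 0.341 at the second, between WT and 4×Polδ. The flank of each toward the gene lies within the run of raised bins at cdc27, where cassette reads are placed. When the WT library of experiment 1 was left out limma called 168 origins, and without any other of the 4 libraries it called 0. The most efficient WT origin, at chromosome I 3952501 to 3952800 (80.3%), had a step of 0.863 and 0.850 in 4×Polδ, against 0.872 and 0.669 in WT.

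Outside the copied genes, the track differences that repeated in both experiments were concentrated beside the integration sites, near ends of chromosomes I and II and in centromeres. The difference passed 0.15 with the same sign in both experiments in 52 of 4192 windows (1.24%), 26 higher and 26 lower in 4×Polδ. Of the 100 windows within 50 kb of a site 20 passed, of 301 within 150 kb of a chromosome end 18, of 57 in centromeres 7, of 11 at the copied genes and ura4 4, and of 11 in the mating-type region 1. Of the 3712 windows elsewhere 2 passed. These places were grouped after the values were seen. With 2×Polδ in place of 4×Polδ, against the same WT libraries, 24 windows passed.

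No 300 bp bin or 3 kb window was called for its strand ratio by edgeR over the 6 Polε libraries (4 windows of 9 kb were), and the count called depended on the libraries in the fit. The quasi-likelihood test called 0 of 41870 bins (0%), with 285 at an unadjusted p below 0.05, with the block also 0 (0%), and DESeq2 called 38 (0.0908%). In windows edgeR called 0 of 4192 (0%), with 168 at an unadjusted p below 0.05 and a lowest adjusted p of 0.111, and 0 with the block (0%). DESeq2 called 58 (1.38%). The fit over all 18 libraries called 32 (0.763%), or 118 with the block (2.81%). Of the 58 windows called by DESeq2, 21 lay within 50 kb of a site, 16 near ends, 9 in centromeres, 4 at the copied genes, 1 in the mating-type region and 7 elsewhere. Without the WT library of experiment 1, a fit with 1 WT library, edgeR called more windows than without any other of the 4 libraries. In most of these, the 4×Polδ minus WT difference of experiment 2 had the sign of the WT track of experiment 1. Without the WT library of experiment 2 it called 7 windows, 6 of them within 50 kb of a site.

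**Figure D4:**
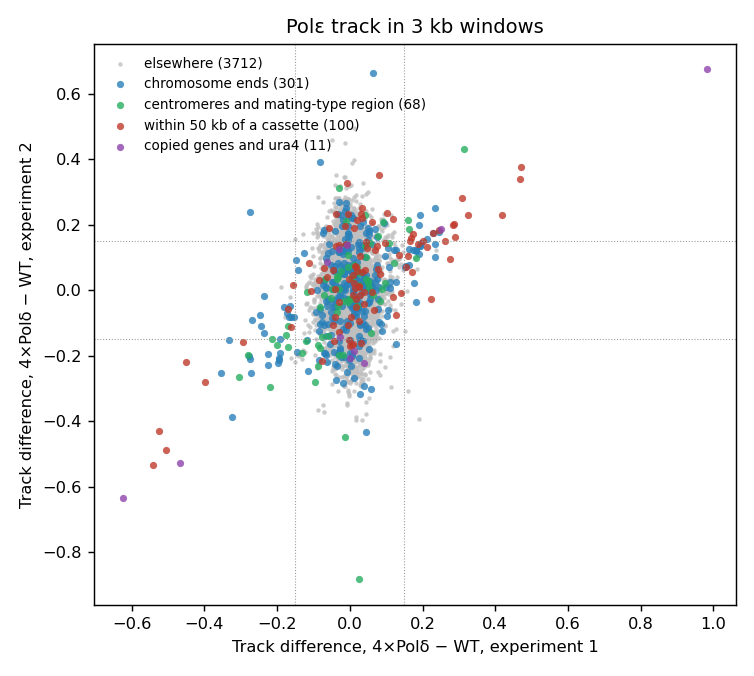
Difference in the Polε track, 4×Polδ minus WT, in 3 kb windows, with experiment 1 on the horizontal axis and experiment 2 on the vertical axis, coloured by place, and dotted lines at 0.15 and −0.15. The 52 windows past 0.15 in both experiments are mostly at copied genes, beside integration sites, in centromeres and near ends.

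All 3 integration sites lie on chromosome I in regions annotated as non-coding RNA (SPOM_SPNCRNA.3487 for I-3325162, SPOM_SPNCRNA.1019 for I-4734015 and SPOM_SPNCRNA.1062 for I-5230932). Each has an efficient WT origin a few kb away, 4.2 kb to the left of I-3325162 (74.5% efficient), 5.4 kb to the right of I-4734015 (71.5%) and 3 kb to the right of I-5230932 (71.4%). Most windows near a site that passed 0.15 in both experiments lay on the side away from that origin: 6 of 6 at I-3325162, 8 of 9 at I-4734015 and 5 of 5 at I-5230932.

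To the right of I-3325162, where 4×Polδ alone of the Polε strains carries a cassette, the track between 25 and 35 kb was −0.221 and −0.264 in 4×Polδ cells, 0.257 and 0.209 in 2×Polδ cells, against 0.296 and 0.203 in WT. The sign was reversed in 4×Polδ, and 2×Polδ lay near WT. Between 15 and 25 kb it was 0.380 and 0.411 in 4×Polδ cells, 0.716 and 0.739 in 2×Polδ cells, against 0.716 and 0.603 in WT. Smoothed over 5 points of 1.5 kb, the track changed sign at 26.3 and 26.5 kb from the site in 4×Polδ and at 34.9 and 33.7 kb in 2×Polδ, against 35.1 and 33.9 kb in WT, so that the crossing lay closer to the cassette in both experiments. In the window at 3357001 the track was −0.391 and −0.436 in 4×Polδ, against 0.114 and 0.0515 in WT. The log2 difference of the strand ratio was −1.51 (SE 0.149) with an edgeR adjusted p = 0.111, against 2.47e-20 by DESeq2 and 2.99e-05 by edgeR over all 18 libraries.

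To the left of I-4734015 the track was nearer 0 in 4×Polδ. Between 15 and 25 kb it was −0.131 and −0.161 in 4×Polδ cells, −0.471 and −0.493 in 2×Polδ cells, which lacks this cassette, against −0.436 and −0.380 in WT. Between 5 and 15 kb it was −0.467 and −0.381 in 4×Polδ cells, −0.681 and −0.632 in 2×Polδ cells, against −0.682 and −0.562 in WT. The 4×Polδ values lay outside those of the other strains at both distances. The smoothed track changed sign at 22.92 and 41.98 kb in 4×Polδ, 41.83 and 42.07 in 2×Polδ, against 41.76 and 41.94 in WT. This sign change lay closer to the site in 4×Polδ in experiment 1 only. In 4×Polδ the track crossed 0 more than once on this side. At 24 kb it was 0.225 and 0.0551 in 4×Polδ cells, −0.119 and −0.267 in 2×Polδ cells, against −0.0505 and −0.00730 in WT, and at 28.5 kb it was below 0 in all 6 Polε libraries. In the window at 4713001 it was −0.252 and −0.259 in 4×Polδ, against −0.561 and −0.540 in WT (edgeR adjusted p = 0.126, DESeq2 3.51e-14, edgeR over all 18 libraries 0.00171). To the right, on the side of the origin, the window at 4761001 passed as well, with 0.0181 and −0.00671 in 4×Polδ cells, −0.114 and −0.129 in 2×Polδ cells, against −0.15 and −0.166 in WT.

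Beside I-5230932, the site that 2×Polδ shares, both strains with a cassette had the change. Between 15 and 25 kb to the left the track was −0.212 and −0.239 in 4×Polδ cells, −0.227 and −0.238 in 2×Polδ cells, against −0.554 and −0.478 in WT. Between 25 and 35 kb it was 0.107 and 0.0438 in 4×Polδ cells, 0.0956 and 0.0589 in 2×Polδ cells, against −0.156 and −0.134 in WT. The smoothed track crossed 0 at 23.7 and 24.4 kb in 4×Polδ and at 23.9 and 24.2 kb in 2×Polδ, against 36.3 and 37.4 kb in WT. In the window at 5205001 the track was 0.00202 and −0.0405 in 4×Polδ, against −0.468 and −0.417 in WT (edgeR adjusted p = 0.111, DESeq2 1.85e-17, edgeR over all 18 libraries 0.000165). The plot of tracks beside the sites shows the 4×Polδ line leaving WT at all of them, and the 2×Polδ line of experiment 1 leaving it only at I-5230932. In experiment 2 the WT line was flatter than 2×Polδ beside the other sites too.

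**Figure D5:**
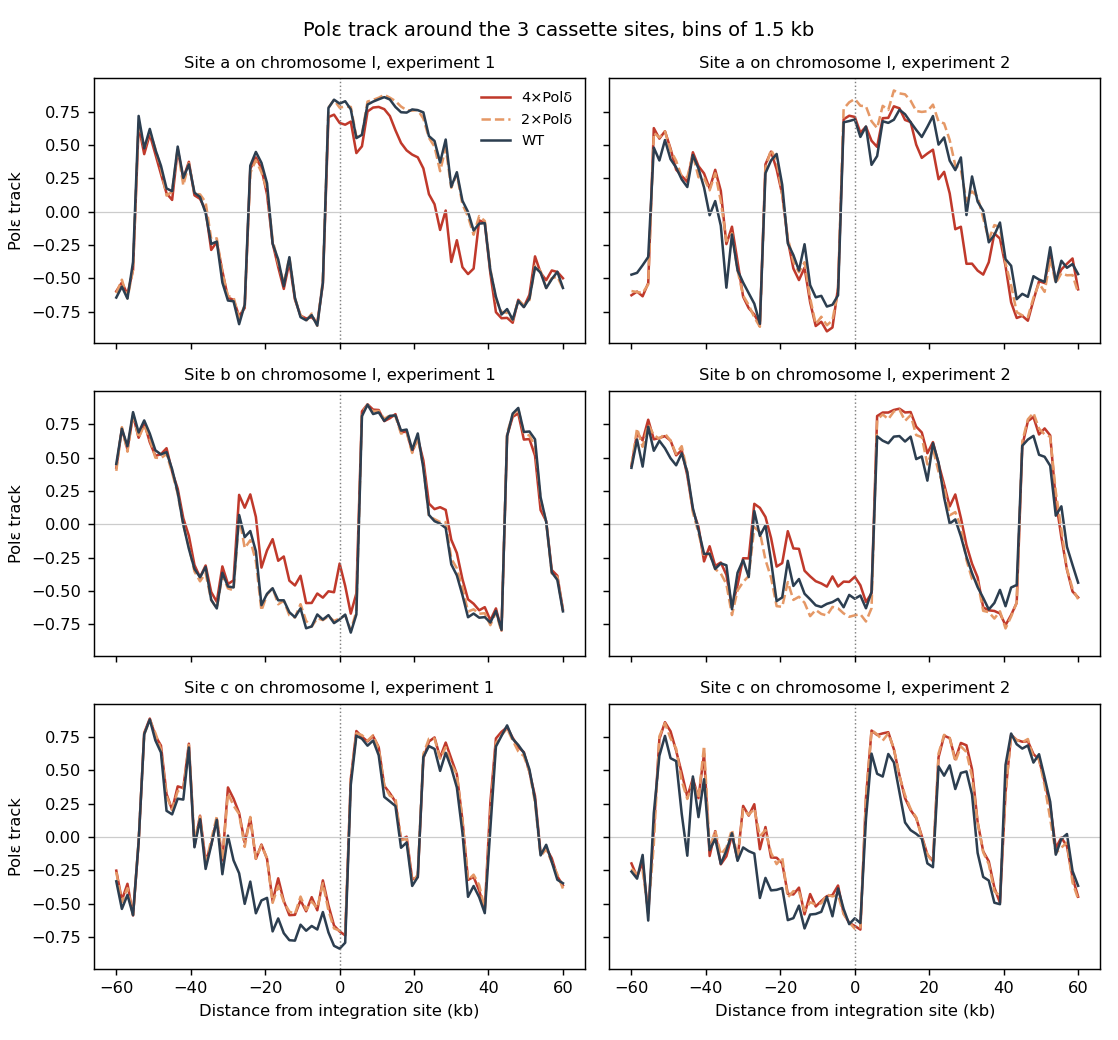
Polε track (vertical axis) against the distance in kb from each integration site (horizontal axis), with 1 line per strain and 1 panel per site and experiment, where Site a is I-3325162, Site b is I-4734015 and Site c is I-5230932. 4×Polδ departs from WT on the right of Site a and on the left of Sites b and c, and 2×Polδ follows 4×Polδ at Site c, whereas in experiment 1 it follows WT at Sites a and b.

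The strains marked by Polδ share no library with these, and their 4×Polδ strain carries cassettes at the same sites. At I-3325162 between 25 and 35 kb to the right, the Polε track of 4×Polδ differed from WT by −0.517 and −0.467 and the Polδ track by 0.378 and 0.325. At I-5230932 between 15 and 25 kb to the left, the Polε differences were 0.343 and 0.239 and the Polδ ones −0.413 and −0.438. At I-4734015 between 15 and 25 kb to the left they were 0.306 and 0.219 for Polε and −0.118 and −0.130 for Polδ. In these intervals the polymerases moved in opposite directions, but not in every interval beside the sites. Between 1 and 5 kb to the right of I-4734015 both differences were above 0, at 0.175 and 0.0315 for Polε and 0.0736 and 0.0775 for Polδ. Across all 4192 windows the Polε and Polδ differences had r of −0.408 and −0.337. In the 52 windows, which were chosen on the Polε difference, r was −0.829 and −0.798, and the signs were opposite in 45 and 44 of them. A test of whether the 4×Polδ change in Polε was other than the mirror of that in Polδ called 0 of 4192 windows by edgeR (0%), with 57 at an unadjusted p below 0.05. It called 90 when the Polε WT library of experiment 1 was left out and 6 when that of experiment 2 was.

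Chromosome ends held 18 of the 52 windows, 6 higher and 12 lower in 4×Polδ. The right end of chromosome I held 8 and its left end 1. The left end of chromosome II held 6 and its right end 3, and each end of chromosome III held 0. At the right end of chromosome I the track in the window at 5520001 was −0.420 and −0.340 in 4×Polδ cells, −0.355 and −0.272 in 2×Polδ cells, against −0.0964 and 0.0460 in WT. The windows at 5511001, 5514001, 5517001, 5526001 and 5529001 also passed with a lower track in 4×Polδ. Closer to the same end the window at 5541001 was higher, with −0.308 and −0.315 in 4×Polδ cells, −0.324 and −0.299 in 2×Polδ cells, against −0.553 and −0.491 in WT. On chromosome II, the window at 4482001 near the right end was 0.0717 and 0.119 in 4×Polδ cells, 0.386 and 0.398 in 2×Polδ cells, against 0.345 and 0.331 in WT, and here 2×Polδ lay near WT. The window at 123001 near the left end was −0.371 and −0.348 in 4×Polδ cells, −0.172 and −0.107 in 2×Polδ cells, against −0.0989 and −0.0957 in WT. At none of these did the 4×Polδ values overlap those of WT. These windows were chosen for a difference from WT in both experiments, so that separation follows largely from the choice.

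In centromere II, 4 windows had a lower total in both experiments, while the region as a whole was lower only in experiment 1. Per median bin, its total (chromosome II 1596001 to 1650000) was 0.909 and 0.826 in 4×Polδ, against 1.24 and 0.824 in WT, a ratio of 0.735 in experiment 1 and 1.00 in experiment 2. The ratio was 0.871 and 1.17 for centromere I and 0.896 and 1.28 for centromere III. The window at 1602001 had 6744 and 2811 counts in 4×Polδ cells, 5864 and 2621 in 2×Polδ cells, against 12709 and 5544 in WT. Its log2 total against WT was −1.11 and −0.57 in 4×Polδ cells, −1.22 and −0.63 in 2×Polδ cells. The 3 other windows past 0.4, at 1614001, 1617001 and 1629001, had log2 totals between −0.84 and −0.57 in 4×Polδ. Those at 1614001 and 1629001 were called with the block (log2 −0.67, SE 0.0583, edgeR adjusted p = 0.0157, and log2 −0.72, SE 0.0735, adjusted p = 0.0359), and without it edgeR called none of the 4. DESeq2, without the block, called all 4 (adjusted p = 0.000699, 0.00345, 0.0158 and 7.05e-06 in order of position). The track at 1617001 was 0.310 and 0.359 in 4×Polδ cells, 0.317 and 0.381 in 2×Polδ cells, against −0.00415 and −0.0734 in WT. Centromeric repeats share sequence, so counts there can be split between copies and are uncertain. In the mating-type region the window at chromosome II 2118001 had −0.171 and −0.161 in 4×Polδ cells, −0.204 and −0.152 in 2×Polδ cells, against 0.0478 and 0.136 in WT.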

How the data were processed

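Genomic DNA of untreated cultures was cut at ribonucleotides and sequenced. The authors deposited counts of mapped ends per strand in 300 bp bins, made with Bowtie2 on build ASM294v2 according to the submitters' processing notes. Its version and settings were not given in the sources used here, and no normalization had been applied. Last bins fit the chromosome lengths of ASM294v3, the reference used here for genes and codons. The 2 runs of experiment 1 differed by a chi-square per degree of freedom of 1.11 in 4×Polδ and 1.10 in WT, against 19.9 and 40.5 between experiments, and were summed.

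Tracks, gene totals (bins weighted by overlap) and origins were obtained with numpy 2.4.6, pandas 2.3.3 and scipy 1.17.1 under Python 3.11.15. Counts of at least 10 in every library were tested with edgeR 4.0.16 (quasi-likelihood, TMM, Benjamini-Hochberg at 0.05) over the 6 Polε libraries in R 4.3.3. The strand test had library as a term. DESeq2 1.42.0 was an alternative, limma 3.58.1 tested origin steps, and exact permutation tests were used for single values. The scripts were tested on simulated data. Origins were called from WT tracks of the 3 polymerases after the study's methods, without the lowest 30% of steps.

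Same-numbered libraries deviated together (r of track deviations 0.643 for 4×Polδ with WT, 0.890 for 4×Polδ with 2×Polδ and 0.664 for 2×Polδ with WT, and of total deviations 0.812, 0.948 and 0.819), so the experiment numbers, which the labels give, pair the libraries. The genes named were those of the strain list and a list of replication genes, and windows, bins and origins were named by the size of their change. The strains, lists and rules were chosen with earlier results of these data known. Centromere, end, mating-type and site windows were grouped after the values were seen. The kanR, natR and hygR markers were not analysed here.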

Additional observations from a re-analysis of the deposited data

How the results depend on the processing

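Of 181 alternatives computed for 25 results, 130 were labelled the same, 45 moved and 6 reversed. For the mean copy ratio of the Polδ genes, the slope, the amplitudes and the origin steps, the same meant only an unchanged direction. For counts it meant a similar number, and for other values one within the spread. A slope difference of 0.268 without the WT library of experiment 1 was thus labelled the same as 0.132 with all libraries. Without the WT library of experiment 2 the direction turned for the slope (−0.00446), the amplitude at efficient origins (−0.0249) and intermediary origins (−0.0116) and that at termination zones (−0.0195), where leaving out that of experiment 1 gave 0.268, 0.159, 0.0603 and 0.141. The low-origin difference became −0.000197 with flanks of 0.3 to 1.5 kb and −0.00193 with regions from WT Polδ and Polα. The causes were not tested.

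With the experiment as a replicate block, edgeR called 52 bins and 10 windows for totals, limma 1 origin, and strand calls stayed at 0. DESeq2 called 70 bins and 14 windows for totals, and 38 bins and 58 windows for strand ratio. Windows of 1.5 kb gave 12 calls for totals and windows of 9 kb gave 4 for strand ratio. Leaving out each of the 4 libraries in turn gave 3 to 5 windows for totals, 0 to 981 for strand ratio, 0 to 90 differing from the Polδ strains and 0 to 168 origins, the highest of the last 3 without the WT library of experiment 1. Origin calls were 0 with the 2 strains alone, 0 with flanks of 0.3 to 1.5 kb and 1 with flanks of 3 to 6 kb. In 3 kb windows the track correlation of experiment 2 was 0.976.

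Alternatives added after seeing the data moved these counts further. With all 18 libraries in the fit edgeR called 32 windows for strand ratio, and with the block as well 18 for totals and 118 for strand ratio. With the block and without the WT library of experiment 2 it called 394 and 1199, a fit that leaves 1 pair less. Windows past 0.15 in both experiments numbered 111 at 1.5 kb, 17 at 9 kb, 112 past 0.1, 24 past 0.2 and 87 with tracks divided by their slope on the WT Polδ track. Beside the integration sites, alternatives were computed for 15 to 35 kb right of I-3325162 and left of I-5230932. They were also computed for 5 to 25 kb left of I-4734015. Of these alternatives 24 gave a value within the spread, 12 moved and 0 reversed. Closer to the sites the direction differed between the experiments in some intervals. Between 1 and 5 kb the difference was −0.127 and 0.0675 right of I-3325162, and 0.214 and −0.0195 left of I-5230932. Only 2 libraries per strain limit every call.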
